A study of Mus musculus with 9 samples.

Results

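Chemokines are small secreted or membrane-bound proteins that guide moving cells through G protein-coupled receptors. The genes described here are 8 chemokine ligands, Cxcl12, Cxcl1, Cxcl5, Cxcl16, Ccl2, Ccl7, Ccl17 and Cx3cl1, and Cxcr4, the main receptor of Cxcl12. Every array probe annotated with the symbol of 1 of these 9 genes was taken, which gave 14 probes for 8 genes out of 45281 probes on the array. Cxcl5 had no probe with its name and was not analysed here. The 9 genes were selected on their own array levels in the cell lines compared below, which were known when the list was made. Their levels and differences are therefore given as a description, without a test.

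RNA was measured on 9 Illumina MouseWG-6 arrays, 3 for each of 3 mouse cell lines studied as models of the extra-embryonic endoderm that induces heart differentiation. The END2 line is endoderm-like, came from P19 embryonal carcinoma cells and was grown in DMEM/F12 with serum. PYS2 cells come from a tumor of strain 129 mice, and XEN cells (labelled xen10) from ICR blastocysts. Both were grown in high glucose DMEM with serum. No group was treated, each group is a single established line, and medium, strain and line cannot be told apart in the comparisons with END2. Between PYS2 and XEN cells, strain and line cannot be told apart either. Nothing states that the 3 arrays of a line came from separate cultures, so their spread may be technical.

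Cxcl12 and Cxcr4 direct the movement of germ cells, blood progenitors and endoderm in the embryo. Cxcl12 is also bound by the scavenging receptor Ackr3. Cxcl1 and Cxcl5 attract neutrophils through Cxcr2, Ccl2 and Ccl7 attract monocytes through Ccr2, and Ccl17 attracts T cells through Ccr4. Cxcl16 and Cx3cl1 are made as membrane proteins that bind Cxcr6 and Cx3cr1 and are released when proteases of the ADAM family cut them. Inflammatory chemokine genes such as Cxcl1 and Ccl2 are known targets of the transcription factor NF-kB.

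RefSeq promoter sequences (build GRCm38.p6) were found for 5 of the 9 genes, Cxcl12, Cxcr4, Cxcl1, Ccl17 and Cx3cl1. The promoters of 4 are printed here as the 250 bases before the start site, read 5′ to 3′ on the gene's own strand. They were chosen because Cxcl12 and Cxcl1 showed large differences between the lines, and because Ccl17 and Cx3cl1 are neighbours on chromosome 8 whose levels ran differently. Capitals mark motif matches. The motifs searched were the NF-kB motifs GGNNTTTCC and GGNNTTCCC, the AP-1 motif TGANTCA and the GC box GGGCGG, each on both strands, and TATAAA on the gene's strand.
Cxcl12, chr6:117168285-117168534, plus strand: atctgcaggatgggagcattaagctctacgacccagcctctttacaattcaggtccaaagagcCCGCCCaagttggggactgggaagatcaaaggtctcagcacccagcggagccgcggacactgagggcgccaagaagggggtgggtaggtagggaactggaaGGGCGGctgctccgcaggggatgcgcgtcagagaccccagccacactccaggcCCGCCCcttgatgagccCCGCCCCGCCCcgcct
Cxcl1, chr5:90890995-90891244, plus strand: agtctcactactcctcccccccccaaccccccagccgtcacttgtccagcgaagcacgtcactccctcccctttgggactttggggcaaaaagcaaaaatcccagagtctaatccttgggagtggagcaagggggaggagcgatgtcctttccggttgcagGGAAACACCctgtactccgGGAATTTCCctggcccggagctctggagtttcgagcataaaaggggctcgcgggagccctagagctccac
Ccl17, chr8:94810203-94810452, plus strand: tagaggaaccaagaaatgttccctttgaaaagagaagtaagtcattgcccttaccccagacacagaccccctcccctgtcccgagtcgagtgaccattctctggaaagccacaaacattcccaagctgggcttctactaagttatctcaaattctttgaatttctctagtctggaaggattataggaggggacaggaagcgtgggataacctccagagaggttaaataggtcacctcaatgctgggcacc
Cx3cl1, chr8:94771930-94772179, plus strand: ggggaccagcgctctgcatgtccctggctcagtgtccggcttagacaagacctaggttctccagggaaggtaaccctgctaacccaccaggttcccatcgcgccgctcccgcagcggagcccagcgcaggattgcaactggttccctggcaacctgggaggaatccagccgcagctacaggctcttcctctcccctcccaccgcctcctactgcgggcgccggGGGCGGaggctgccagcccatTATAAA

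The Cxcl12 window held 5 GC boxes, of which the pair nearest the start site overlap, and none of the other motifs. The Cxcl1 window held 2 matches to GGNNTTTCC, at -89 on the opposite strand and at -70 on the gene's strand, and no other motif. The Ccl17 window held no match to any of the motifs, and the Cx3cl1 window held 1 GC box and 1 TATAAA. The Cxcr4 window held 3 GC boxes and 1 TATAAA. Over 32851 promoters of the same length, 4.93% held GGNNTTTCC, 4.99% GGNNTTCCC, 6.75% TGANTCA, 7.59% TATAAA and 32.7% a GC box. These matches describe the letters in the window and say nothing of whether a factor binds there.

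The scanner gave each probe a fluorescence signal, in intensity units, and a detection score. A probe was called detected where its detection p-value was under 0.01, and present in a line where 2 or more of its 3 arrays detected it. Detected probes numbered 13560 to 14940 per END2 array, 13051 to 13548 per PYS2 array and 13266 to 13945 per XEN array, and the lowest detected signal of an array was between 37.6 and 80.5. XEN replicate 2 was the brightest XEN array, with a median signal of 43.5 against 21.3 and 24 for the other XEN arrays, which normalization removes. END2 replicate 3 lay apart from the other END2 arrays, at a Euclidean distance of 72.1 and 78.5 from replicates 1 and 2, which were 35 apart. For comparisons, signals were turned into background-corrected, quantile normalized log2 levels. Levels are compared between lines for 1 probe, not between probes. The exception is the summed levels of marker lists, which add 1 probe per gene and include the background level of undetected probes. Of the 9 extra-embryonic endoderm markers that could be tested, 8 were lower and 1 was higher in END2 than in PYS2 cells (limma, adjusted p under 0.05). Of all genes tested, 28.8% were lower and 26.4% higher. Against XEN cells 9 were lower in END2, where 26.7% of all genes were, and Gata6 passed only narrowly at -0.42 (SE 0.164). Sox7 and Sox17, transcription factors of the primitive endoderm, were detected on no END2 array and on every PYS2 and XEN array, and they entered the fit, like Hnf4a and Ttr, only through lines other than END2, so their direction was set by that filter. Gata6 and Dab2, other markers of the list, were detected on every array of the 3 lines.

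Of the 8 genes with a probe, 6 were present in END2 cells (Cxcl12, Cxcl1, Ccl2, Ccl7, Ccl17 and Cx3cl1), 1 in PYS2 cells (Ccl17) and 3 in XEN cells (Cxcl16, Ccl17 and Cx3cl1). Cxcr4 was present in none. Across the array, 8418, 7906 and 7909 of the 19057 named genes were present in END2, PYS2 and XEN cells. In at least 1 line, 49.1% of the named genes were present, and 87.5% of the 8 genes, which were selected on their levels. The plot of scanner signals by line shows these genes array by array.

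**Figure D1:**
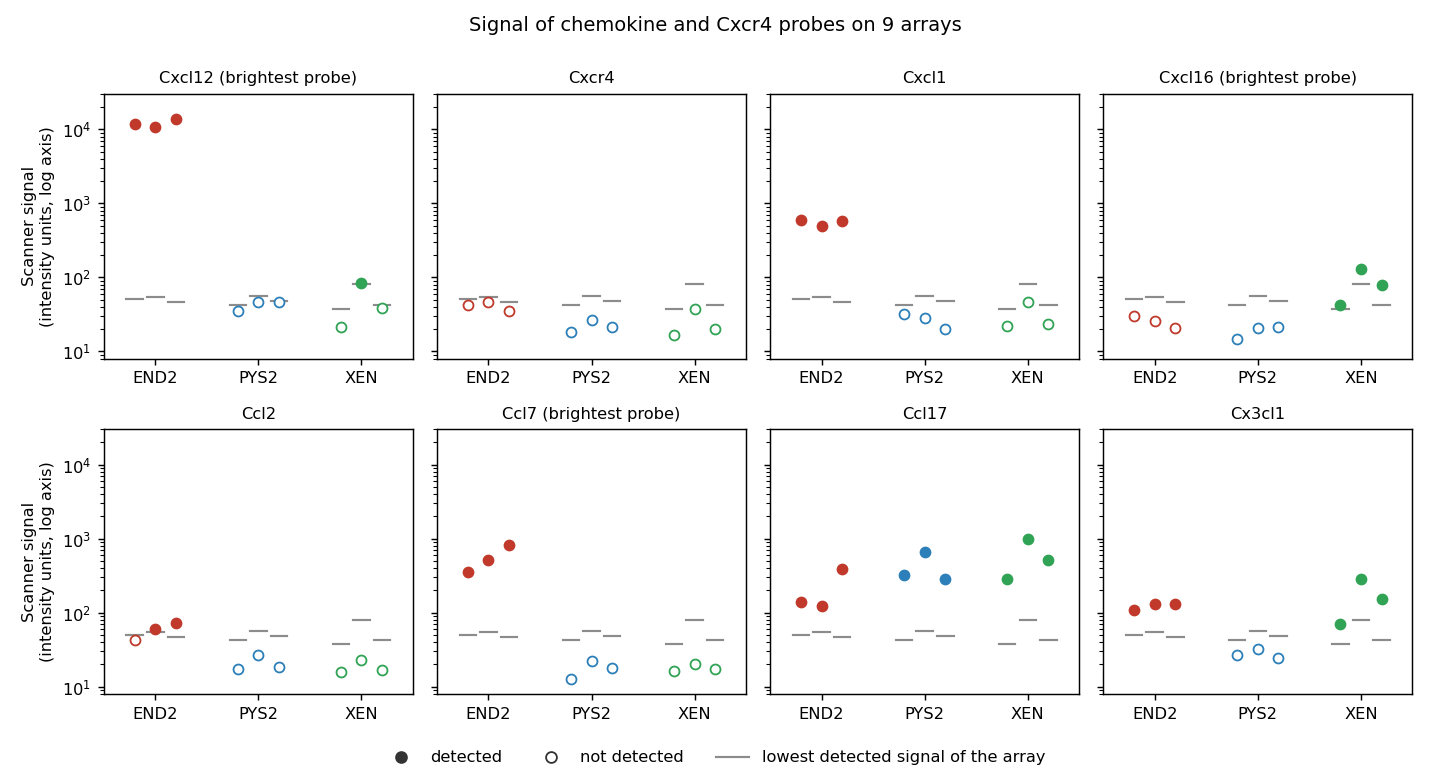
Scanner signal (intensity units, log axis) of 1 probe for each of 8 genes on the 3 END2, 3 PYS2 and 3 XEN arrays, in replicate order from left to right within a line. Filled points were detected and open points were not, and grey dashes mark the lowest detected signal of each array. Cxcl12 lay between 10656.5 and 13857.3 on the END2 arrays, and Ccl17 was detected on all 9 arrays.

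Cxcl12, a chemokine made by stromal cells that holds and attracts Cxcr4-bearing cells, had the largest difference between lines of the 7 ligands measured. Its brightest probe (ILMN_2658908, annotated to NM_013655) gave signals of 11753.6, 10656.5 and 13857.3 on the END2 arrays, against 34.6, 45.9 and 47 on the PYS2 arrays and 21, 82.8 and 38.2 on the XEN arrays. The END2 signals were thus far from those of both other lines, while PYS2 and XEN overlapped. No PYS2 array and 1 of 3 XEN arrays (replicate 2) detected it. The standard error over beads was 3.14 to 4.86% of the END2 signals. In RNA of a whole culture, more cells making a transcript and more transcript per cell cannot be told apart. END2 cells averaged 13.59 ± 0.263 on the log2 scale, PYS2 cells 5.30 ± 0.194 and XEN cells 5.14 ± 0.466 (SD, n = 3 each). END2 minus PYS2 was 8.29 (SE 0.239), and since no PYS2 array detected the probe this is given as at least 260-fold. Such a bound sets the dim line, array by array, at the higher of its own level and that of the dimmest detected probe. END2 minus XEN was 8.45 (SE 0.239), given without a fold because 1 of 3 XEN arrays detected the probe, and PYS2 minus XEN was 0.16, within the SE of 0.239.

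Cxcl12 has 5 probes, annotated to 3 RefSeq transcripts, and they did not all carry signal. Another probe (ILMN_2737302, NM_021704) gave 3456.4, 4246.9 and 1500.8 in END2 cells, against 17.5 to 27.5 in PYS2 and 17.1 to 33.4 in XEN cells. A further probe (ILMN_3158250, NM_001012477) gave 2691.3, 2947.9 and 1419.4 in END2 cells, against 18.6 to 37.2 in PYS2 and 15.6 to 36.3 in XEN cells. Both were detected on all 3 END2 arrays and on no other array. By ILMN_2737302 the END2 level was at least 58.7-fold that of PYS2 and 60.6-fold that of XEN cells, and by ILMN_3158250 at least 46.8-fold and 48.4-fold.

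The other 2 Cxcl12 probes were not detected on any array. ILMN_2746295, annotated to NM_021704 like ILMN_2737302, ran from 23.4 to 30.4 in END2, 18.3 to 21.3 in PYS2 and 21.7 to 30.6 in XEN cells. ILMN_3078973, annotated to NM_001012477 like ILMN_3158250, ran from 27.7 to 32.7 in END2, 10 to 16.5 in PYS2 and 13.2 to 21.7 in XEN cells. Of probes annotated to the same transcript, 1 thus gave a strong signal and 1 was at background on the same arrays. Which transcripts END2 cells make cannot be read from these probes.

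**Figure D2:**
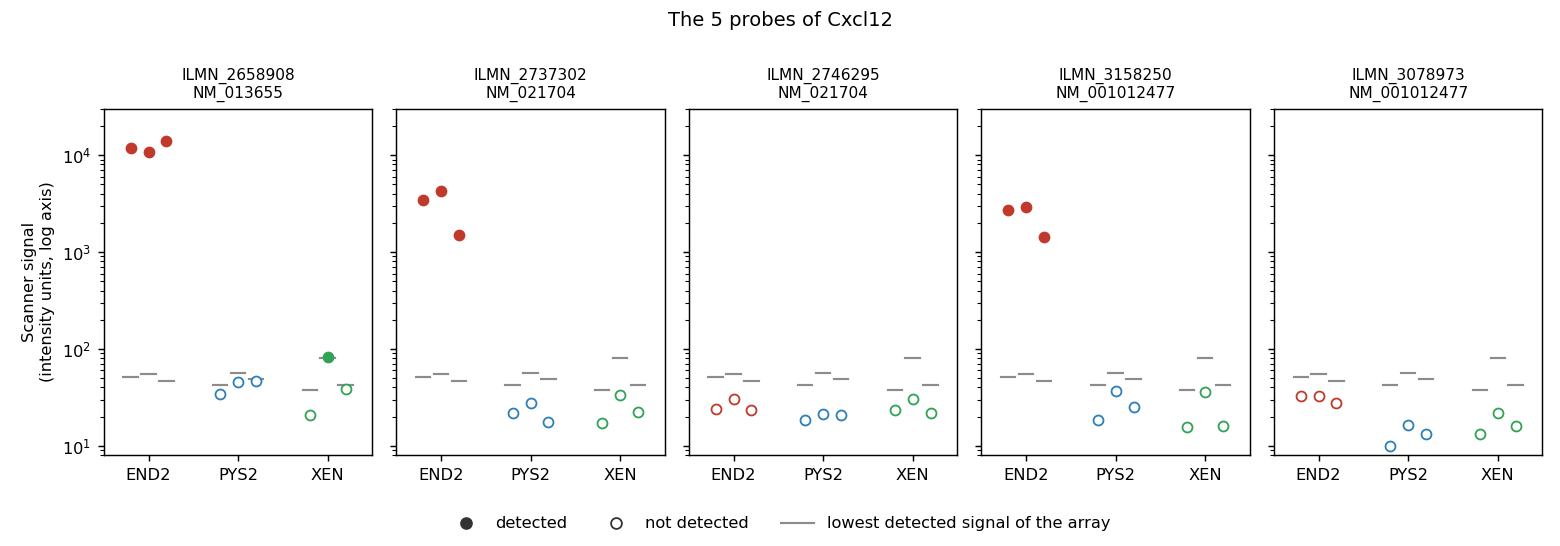
Scanner signal (intensity units, log axis) of the 5 Cxcl12 probes on the 3 END2, 3 PYS2 and 3 XEN arrays, with the probe and its annotated transcript above each panel. Filled points were detected, open points were not, and grey dashes mark the lowest detected signal of each array. Of the 5 probes, 3 were detected on all END2 arrays and 2 on no array.

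The END2 arrays did not run together at all 3 bright Cxcl12 probes. On the log2 scale, END2 replicate 3 stood 0.44 above the mean of replicates 1 and 2 at the brightest probe, and fell by 1.10 and 0.72 relative to that mean at ILMN_2737302 and ILMN_3158250. The gaps between END2 and the other lines, of 5.80 or more at every bright probe, were larger than these shifts.

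Cxcr4, the receptor through which Cxcl12 moves cells, was not detected in any line. Its probe gave 42.7, 45.9 and 35.5 on the END2 arrays, 18.1, 26.2 and 21 on the PYS2 arrays and 16.5, 37 and 20.1 on the XEN arrays. The END2 levels, at 5.01 on average against 4.50 in PYS2 and 4.48 in XEN cells, lay above those of the other lines without overlap, but every array was below its detection limit and no fold is given. The detection p-values were 0.0363 to 0.0727 in END2 cells. Ackr3, the other Cxcl12 receptor, was not detected either, at 17.7 to 21.4 in END2, 18.9 to 40.5 in PYS2 and 16.9 to 48.1 in XEN cells. With a looser limit of 0.05 on the detection p-value, Cxcr4 would count as present in END2 cells, on 2 of 3 arrays.

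Cxcl1, a neutrophil attractant, was detected on the 3 END2 arrays and nowhere else. Its signals were 587.9, 493.7 and 579.5 in END2 cells, against 31.5, 28.3 and 20.3 in PYS2 and 22.1, 46.3 and 23.1 in XEN cells. END2 cells averaged 8.97 ± 0.35 on the log2 scale, PYS2 cells 4.71 ± 0.308 and XEN cells 4.64 ± 0.0468 (SD, n = 3 each). END2 was higher than PYS2 by 4.27 (SE 0.212) and higher than XEN by 4.34 (SE 0.212), which is at least 10.6-fold and 10.9-fold. The PYS2 and XEN arrays overlapped. Cxcl1 lies on chromosome 5 beside Cxcl15 and Cxcl2, in a cluster with Cxcl5, Ppbp, Pf4 and Cxcl3.

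Ccl7, a monocyte attractant, had 2 probes, both detected on the 3 END2 arrays and on no other. The brighter probe (ILMN_2835117) gave 354.6, 513.6 and 814 in END2 cells, against 12.9, 22 and 18.1 in PYS2 and 16.3, 20.6 and 17.3 in XEN cells. The other (ILMN_2771176) gave 132, 197 and 254.1 in END2 cells, against 27.5, 34.9 and 24.6 in PYS2 and 21.1, 39.9 and 20.9 in XEN cells. Both probes put END2 above the other lines with no overlap and kept the same order among the END2 arrays. At the brighter probe END2 cells averaged 8.90 ± 0.828 on the log2 scale, PYS2 cells 4.41 ± 0.0516 and XEN cells 4.40 ± 0.0518 (SD, n = 3 each). By this probe END2 exceeded PYS2 at least 10-fold and XEN at least 10.4-fold, and by the other at least 3.4-fold and 3.51-fold.

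Ccl2, the neighbour of Ccl7 on chromosome 11 and a ligand of the same receptor, gave signals of 43.1, 59.6 and 73.3 in END2 cells, against 17.1, 26.9 and 18.4 in PYS2 and 16, 23.1 and 16.9 in XEN cells. It was detected on END2 replicates 2 and 3, not on replicate 1, and on no other array. END2 cells averaged 5.58 ± 0.687 on the log2 scale, PYS2 cells 4.48 ± 0.0598 and XEN cells 4.40 ± 0.0347 (SD, n = 3 each). END2 was higher than PYS2 by 1.10 (SE 0.274) and higher than XEN by 1.18 (SE 0.274), with no overlap. As a bound this was at least 1.04-fold over XEN and 1-fold over PYS2 cells, since the dimmest detected probe of an array lay at 5.21 to 5.64.

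Ccl17, a T cell attractant, was the 1 gene of the 9 detected on all 9 arrays. Its signals were 139.5, 125 and 392.2 in END2 cells, against 320, 656.7 and 287 in PYS2 and 287.3, 978 and 523 in XEN cells. END2 replicates 1 and 2 were the lowest of all arrays, and END2 replicate 3 lay among the PYS2 and XEN arrays. The log2 levels were 6.72, 6.48 and 8.80 in END2, 8.67, 9.22 and 8.27 in PYS2 and 8.67, 9.30 and 9.39 in XEN cells.

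END2 minus PYS2 for Ccl17 was -1.38 and END2 minus XEN was -1.78, each with an SE of 0.505 and overlapping arrays, and PYS2 minus XEN was -0.40. Without END2 replicate 3 the differences from PYS2 and XEN were -2.11 and -2.51, and without END2 replicate 2 the difference from PYS2 was -0.97. END2 replicate 3 stood 2.20 above the mean of END2 replicates 1 and 2 at this probe, and a rise of 2 or more was found at 0.0898% of the 14484 probes present in END2 cells. The same replicate stood 1.37 and 1.26 higher at the Ccl7 probes, 1.14 at Ccl2, 0.81 at Cx3cl1 and 0.53 at Cxcl1. Of all probes present in END2 cells, 8.83% moved by 1 or more in either direction in this replicate.

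Cx3cl1, the membrane-bound chemokine also called fractalkine, was present in END2 and XEN cells and was not detected in PYS2 cells. Its signals were 108.9, 132.5 and 132.9 in END2 cells, against 27.1, 32.7 and 24.3 in PYS2 and 71.2, 286.6 and 152.4 in XEN cells. END2 cells averaged 6.72 ± 0.481 on the log2 scale, PYS2 cells 4.71 ± 0.103 and XEN cells 7.25 ± 0.523 (SD, n = 3 each). END2 was higher than PYS2 by 2.02 (SE 0.283), or at least 2.22-fold, and XEN was at least 3.2-fold higher than PYS2 (PYS2 minus XEN -2.54, SE 0.283). END2 minus XEN was -0.53 with overlapping arrays. On the log2 scale this difference was -0.80 without END2 replicate 3 and -0.82 without XEN replicate 1.

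Cx3cl1 and Ccl17 lie side by side on chromosome 8, with Ccl22 on the other side of Cx3cl1, and their patterns were not alike. PYS2 cells were below detection for Cx3cl1 and between the other lines on average for Ccl17. Ccl22 was not detected on any array.

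Cxcl16, the other membrane-bound ligand, was detected in XEN cells alone. Of its 2 probes, ILMN_2687586 gave 30.1, 25.5 and 20.6 in END2 cells and 14.7, 20.7 and 21.3 in PYS2 cells, none of them detected, against 42.8, 129.8 and 79.8 in XEN cells, all detected. END2 cells averaged 4.53 ± 0.0857 on the log2 scale, PYS2 cells 4.44 ± 0.0682 and XEN cells 6.24 ± 0.437 (SD, n = 3 each). END2 minus XEN was -1.71 and PYS2 minus XEN -1.80 (SE 0.208), so that XEN was at least 1.88-fold and 1.59-fold higher. END2 and PYS2 overlapped. The other probe (ILMN_1254723) was not detected on any array, at 17.5 to 20.1 in END2, 10.9 to 19.5 in PYS2 and 14.9 to 31.9 in XEN cells, so the XEN signal rests on 1 probe.

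**Figure D3:**
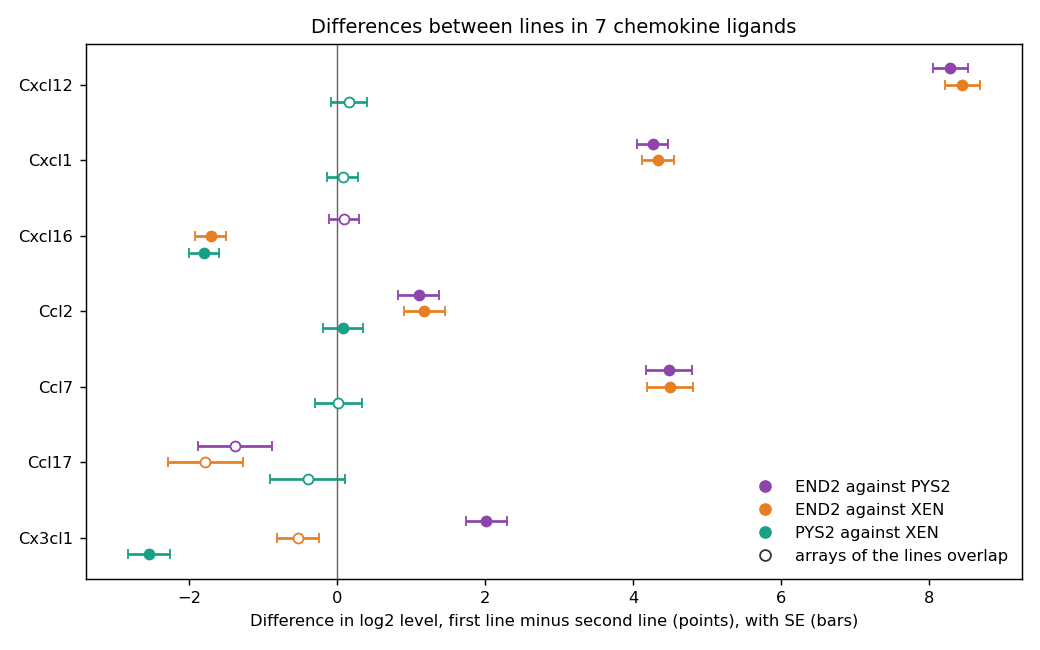
Differences in log2 level between lines (first line minus second, points) with their standard errors (bars) for the 7 ligands that could be compared, each by its brightest probe. Filled points mark comparisons in which the arrays of the lines do not overlap. Cxcl12, Cxcl1, Ccl7 and Ccl2 were higher in END2 than in both other lines, and Cxcl16 was lower in END2 and PYS2 than in XEN cells.

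The median difference of the 7 ligands was 2.02 between END2 and PYS2 cells, 1.18 between END2 and XEN cells and 0.01 between PYS2 and XEN cells. That of all 9354 genes tested was -0.03, -0.02 and 0.02 in the same comparisons. The genes were chosen by these differences, so nothing is read from their medians.

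The size of the differences depended on the processing. In the authors' normalized values END2 minus PYS2 was 6.30 for Cxcl12, 2.01 for Cxcl1, 2.09 for Ccl7, 0.64 for Cx3cl1 and 0.32 for Ccl2. END2 minus XEN was 6.34, 2.02 and 2.10 for Cxcl12, Cxcl1 and Ccl7, 0.36 for Ccl2 and -0.50 for Cxcl16, and PYS2 minus XEN was -0.54 for Cxcl16 and -0.89 for Cx3cl1. Each kept its direction, and the folds above are thus tied to the processing used here.

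Most of the rest of the chemokine family was not detected. Of 57 other ligands and receptors listed, 55 had a probe, and 46 of these were detected on no array. Only 10.9% were present in at least 1 line, beside 49.1% of all named genes. The 57 leave out the 9 genes selected on their levels, of which 87.5% of those with a probe were present. The share is thus not that of the whole family. Cxcr2, Ccr2, Ccr4, Cxcr6 and Cx3cr1, the receptors of the ligands described above and named for that reason, were detected on no array. The 6 other family members that could be tested were Cxcl10, Cxcl15, Ccl25, Ccl27a, Mif and Ccrl2.

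In END2 against PYS2 cells 2 of these 6 were higher and 2 lower (limma, adjusted p under 0.05), where 26.4% of all genes tested were higher and 28.8% lower. In END2 against XEN cells 1 was higher and 2 lower, where 27.5% and 26.7% of all genes were. In PYS2 against XEN cells 1 was higher and 1 lower, where 21.2% and 18.4% of all genes were. A gene entered the fit only where at least 1 line had it present, so for a gene present in a single line, such as Cxcl10 or Cxcl15, this filter set the direction. Without END2 replicate 1, or without END2 replicate 2, 1 gene in place of 3 passed between END2 and XEN cells. Cxcl10, an interferon-induced T cell attractant, was detected in PYS2 cells alone, and its signals were 18.5 to 22.2 in END2 against 62.1 to 80.7 in PYS2 cells. The END2 level was lower by at least 1.73-fold. Ccl27a, a skin chemokine, has near-identical gene copies that its probes may not separate. It was undetected in END2 cells, which lay below PYS2 by at least 7.91-fold and below XEN by at least 5.84-fold. Ccl27a entered the fit only through PYS2 and XEN cells, so the filter set its direction against END2. Cxcl15, a lung chemokine in the Cxcl1 cluster, was detected on 2 of 3 END2 arrays and on no other. END2 minus PYS2 was 1.31 (SE 0.397), and the remaining END2 array, at a signal of 20.6, was at background.

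Ccl25, a thymus and gut chemokine, differed with the probe read. ILMN_2942353 put END2 at least 5.09-fold above PYS2 cells, where no array detected it, with XEN near END2. ILMN_1254200 put PYS2 above END2 by 6.76-fold, and ILMN_2661722 gave a difference of -0.10 (SE 0.216), so no direction is given for the gene. Mif, a cytokine that binds Cxcr2 and Cxcr4, was among the bright genes of all 3 lines, at 25207.7 to 27218.6 in END2 and 24236.4 to 26437.7 in PYS2 cells, a log2 difference of 0.01 (SE 0.145). Ccrl2, a receptor-like protein that presents a chemoattractant without signalling, was detected on 3 END2 arrays, no PYS2 array and 1 XEN array, with differences no larger than 0.18.

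Of 14 proteases that shed or cut chemokines and their regulators, 9 could be tested. Of these, 5 were higher and 1 lower in END2 than in PYS2, the same counts held for END2 against XEN, and 1 was higher and 2 lower in PYS2 than in XEN. The shares of all genes were 26.4% and 28.8%, 27.5% and 26.7%, and 21.2% and 18.4% in these comparisons. Mmp2 was present in END2 cells alone and Dpp4 only in the other lines. The filter for entering the fit thus set the direction of both against END2, and the counts include them. Mmp2, a gelatinase that cuts Cxcl12 at its start, exceeded its PYS2 level in END2 cells by at least 158-fold and its XEN level by at least 163-fold. Mmp14, its membrane-bound activator, was 9.32-fold and 24.8-fold higher. Dpp4, a peptidase that removes the first residues of Cxcl12, ran the other way. For Dpp4, END2 minus PYS2 was -6.05 and END2 minus XEN -5.85 on the log2 scale. Its fold is not given because 1 of 3 END2 arrays detected it. The inhibitors Timp2 and Timp3 lay in END2 cells 16.4-fold and 7.96-fold above PYS2 and 2.01-fold and 2.59-fold above XEN. The other tested Timp3 probe gave 5.95-fold over PYS2 and 8.08-fold over XEN. Rhbdf1, which carries the Cx3cl1 sheddase Adam17 to the surface, was higher by 0.71 and 0.75 on the log2 scale. Adam17 itself was detected in all 3 lines and did not pass in any comparison (limma, adjusted p of 0.106, 0.0631 and 0.829).

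Of 30 genes of chemokine receptor signalling and turnover with a probe, 18 could be tested. Of these, 9 were higher and 1 lower in END2 than in PYS2, 6 and 1 in END2 than in XEN, and 2 and 3 in PYS2 than in XEN, beside the same shares of all genes (26.4% and 28.8%, 27.5% and 26.7%, 21.2% and 18.4%). Elmo1, Grk5, Gng2 and Itch were present in END2 cells alone, so the filter for entering the fit set their direction. Rgs16, the 1 lower gene, was detected on no END2 array and entered only through the other lines. The counts include these genes and nothing is read from them. For Elmo1, an adaptor for Rac activation, the brighter probe put END2 at least 4.74-fold above PYS2 and at least 4.89-fold above XEN. Its other tested probe (ILMN_2672846) differed by 0.07 and 0.22 (limma, adjusted p of 0.784 and 0.375), so no direction is given for the gene. Gnai1, an inhibitory G protein subunit, was detected on no PYS2 array, so the filter set its direction against PYS2. END2 lay at least 3.82-fold above PYS2, with XEN near END2 (difference 0.07, SE 0.433). Gnaq, another G protein subunit, reached 3.05-fold its PYS2 level in END2 cells, and the receptor kinase Grk5 at least 1.47-fold higher. Pxn, the focal adhesion protein paxillin, was 1.56-fold above PYS2 and 4.97-fold above XEN in END2 cells. The arrestin Arrb2 was 2.17-fold higher in END2 than in XEN (limma, adjusted p = 9.74e-04) and differed by -0.26 (SE 0.213) from PYS2.

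Among NF-kB genes, their inputs and known targets, 22 were tested. In END2 against PYS2 cells 9 were higher and 5 lower, in END2 against XEN 11 were higher and 2 lower, and in PYS2 against XEN 10 were higher and 2 lower. The shares of all genes were again 26.4% and 28.8%, 27.5% and 26.7%, and 21.2% and 18.4%. All 22 genes were present in END2 cells, against 20 in PYS2 and 17 in XEN cells. For a gene detected on no array of a line, the filter set the direction against that line. This held among others for Traf2 in PYS2 and XEN cells, Csf1 in PYS2 cells, and Tlr2 and Tnfrsf1a in XEN cells. The counts include such genes and nothing is read from the counts. The NF-kB subunit genes Relb and Nfkb2 were among the 5 lower in END2 than in PYS2, by -1.05 (limma, adjusted p = 0.00355) and -0.74 (limma, adjusted p = 0.00828) on the log2 scale. The 6 genes described next had the largest differences. Csf1, the macrophage growth factor, exceeded PYS2 at least 12.3-fold and XEN 11.4-fold (limma, adjusted p = 1.54e-07 against XEN) in END2 cells. The adhesion molecule Vcam1 was 4.99-fold and 7.08-fold higher by its brighter probe. Its other tested probe, near background, differed by 0.85 and 0.88 on the log2 scale. Tlr2, a receptor for bacterial lipoproteins, was 3.12-fold above PYS2 and at least 3.80-fold above XEN in END2 cells, and the TNF receptor Tnfrsf1a was 1.55-fold and at least 3.63-fold higher. Tab1, a partner of the kinase TAK1, was 1.76-fold and 3.44-fold higher, and the inducible regulator Nfkbiz 2.47-fold and 2.80-fold.

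**Figure D4:**
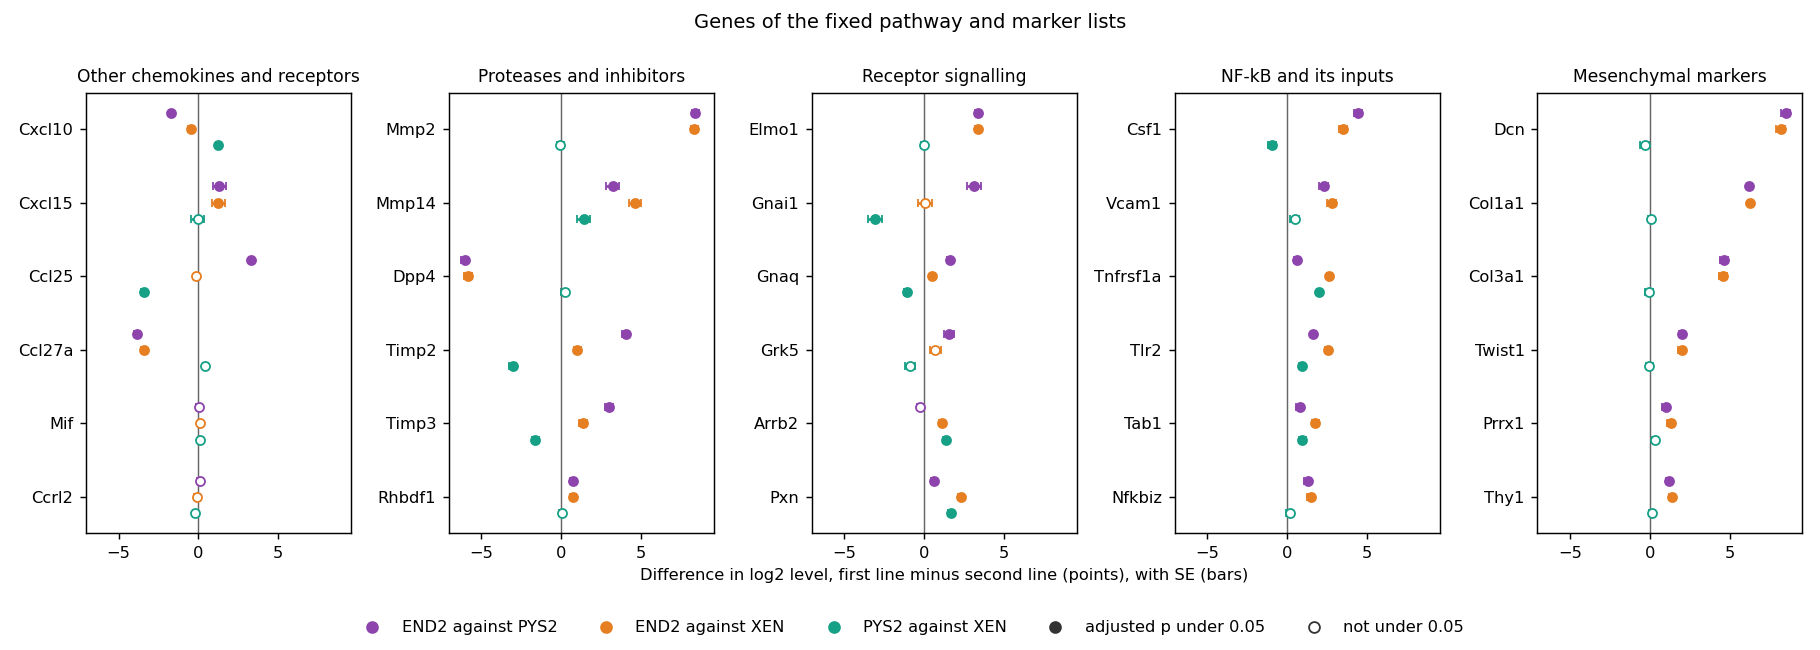
Differences in log2 level between lines (first line minus second, points) with standard errors (bars) for other chemokine family genes, proteases and inhibitors, receptor signalling genes, NF-kB genes and mesenchymal markers. Filled points passed the adjusted p of 0.05 in the limma fit over all probes and open points did not. Each gene is drawn by its tested probe of highest mean level. Other probes of Ccl25 and Elmo1, and in PYS2 against XEN those of Gnaq and Timp3, disagree with those drawn. Mmp2, Dcn and Col1a1 were far higher in END2 than in PYS2 and XEN cells, and Dpp4 was lower.

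Markers of other cell types were read on the same arrays. Of 10 mesenchymal and fibroblast markers listed, 7 were present in END2 cells, 1 (Twist1) in PYS2 cells and 1 (Twist1) in XEN cells. Since the others entered the fit through END2 cells alone, their direction was set by that filter and no count of it is given. The summed level of the 7 tested, each by 1 probe, was 7440 to 13900 in END2, against 242 to 291 in PYS2 and 231 to 293 in XEN cells. Dcn weighed most in the END2 sum, and the filter largely set the direction of the sum too. Dcn, a matrix proteoglycan, exceeded PYS2 at least 163-fold in END2 cells by its brightest probe. Its other tested probes put END2 at least 52.1-fold, 1.76-fold and 1.35-fold above PYS2. The fibroblast collagen genes Col1a1 and Col3a1 exceeded PYS2 at least 36-fold and 11.5-fold, and Col3a1 by its other tested probe at least 3.51-fold. Twist1, a mesenchymal transcription factor, was 4.08-fold higher, Prrx1 at least 1.44-fold and the surface marker Thy1 at least 1.14-fold higher. Col1a2, a further collagen gene, was detected on 2 END2 arrays, while Lum, Postn and Pdgfrb were detected on no END2 array. The markers present in END2 cells shared with Cxcl12, Cxcl1 and Ccl7 a higher level there than in both other lines, which for most the filter set. Among the END2 arrays, Dcn was lowest on replicate 3, where Ccl7 was highest. The part of the markers in the chemokine differences was not tested.

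Ptprc, the marker of all leukocytes, and Pecam1, an endothelial marker, were at background on every array. Of 9 leukocyte markers with a probe, 3 could be tested, Fcgr3 and Csf1r only because PYS2 cells had them present. Cd14, a co-receptor for bacterial lipopolysaccharide, was present in END2 and PYS2 cells. END2 minus PYS2 for Cd14 was -1.52 (limma, adjusted p = 1.27e-04). No XEN array detected Cd14, so the filter set its direction against XEN, which END2 exceeded by at least 1.03-fold. In END2 cells, Fcgr3, an Fc receptor, lay at least 5.35-fold below PYS2 and Csf1r at least 1.21-fold below. The summed level of the 3 was 85.2 to 112 in END2, against 358 to 479 in PYS2 and 79.4 to 103 in XEN cells. The 3 endothelial markers tested of 7, Tek, Esam and Cdh5, were present in PYS2 and XEN cells and not in END2 cells, which sets their direction, and had a summed level of 75.4 to 93.7 in END2, against 803 to 1280 in PYS2 and 1420 to 1930 in XEN cells. The part of these cell types in the chemokine levels was not tested.

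The genes whose pattern over the 9 arrays came closest to each ligand were found by the root mean square difference of centred log2 levels. For Cxcl12 they were Cav1 (0.296), a caveolar coat protein, Mmp2 (0.42) and Dcn (0.563). Cav1 averaged 12.36 in END2 cells on the log2 scale, against 4.35 in PYS2 and 4.33 in XEN cells. For Cxcl1 they were the collagen gene Col8a1 (0.151), Stx11 (0.195) and the tendon transcription factor Scx (0.203), and for Ccl7 Gpr176 (0.189), Erfe (0.205) and Tcaf2 (0.206). For Ccl2, whose END2 signals lay near the detection limit, they were Ly9 (0.0587), Tnfsf18 (0.1) and the Notch ligand Jag1 (0.144).

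The ligands present outside END2 cells had other neighbours in this measure. For Cxcl16 they were Synpo2l (0.149), Obi1 (0.149) and Utf1 (0.153), all near background in END2 and PYS2 cells. For Cx3cl1 they were Myadm (0.299), Tnfrsf21 (0.299) and Sult4a1 (0.319), and for Ccl17 the RNA helicase gene Ddx3x (0.345), the nucleolin gene Ncl (0.378) and the chaperone gene Dnaja2 (0.394). Ncl averaged 8.66 in END2 cells on the log2 scale, against 9.68 in PYS2 and 10.5 in XEN cells. Likeness here describes levels over 9 arrays of 3 lines and says nothing of shared control.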

How the data were processed

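RNA of the END2, PYS2 and XEN lines was read on Illumina MouseWG-6 arrays in triplicate. The authors exported each probe's intensity from BeadStudio on a linear scale, without normalization between arrays, and the sources do not say whether a background had been subtracted. Their deposited table also gives the detection score as a fraction from 0 to 1, turned here into a detection p-value as 1 minus the score, and the bead count behind each signal. A second deposited table holds the log2 values the authors made with lumi, whose version the sources do not give, and served as an alternative. The scanner table has 24 further columns that belong to no sample of this series and were left out.

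Background correction and quantile normalization used the neqc function of limma 3.58.1 (R 4.3.3) at an offset of 16, where detection p-values stood for negative controls. Platform annotation named 34885 of 45281 probes with 1 gene symbol. Several symbols were given for 18 probes and none for 10378, and RefSeq (GRCm38.p6) held 34807 of the single symbols. The 16299 probes (9354 genes) present in 1 or more lines were fitted in 1 limma model of the 9 arrays, with no replicate block, and p-values were adjusted over all of them by Benjamini-Hochberg at a threshold of 0.05. The probe of highest mean level stood for its gene. The model was tested on simulated data. Precision is limited by the number of arrays. The members and the lists of related genes were chosen with earlier results of these data known. Named from each list were the genes that passed, or the 6 with the largest differences where more passed, and for each ligand the 3 probes nearest in pattern. The receptors Ackr3, Cxcr2, Ccr2, Ccr4, Cxcr6 and Cx3cr1, and Adam17, Ccl22, Ptprc, Pecam1, Mif, Ccrl2, Relb, Nfkb2, Gng2, Itch, Dab2, Hnf4a, Ttr, Col1a2, Lum, Postn and Pdgfrb were named outside that rule, after their values were seen.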

Additional observations from a re-analysis of the deposited data

How the results depend on the processing

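Of the member differences recomputed under the alternatives, 364 stayed within the spread between replicates and 26 moved by more than that, with no called difference turning its direction. Among the other chemokine ligands and receptors that passed between END2 and XEN cells, leaving out 1 array gave 1 to 3 genes in place of 3, with 1 left without END2 replicate 1 or without END2 replicate 2. Between PYS2 and XEN cells the count was 1 with the mean of a gene's probes in place of 2. For the pathway and marker lists, 15 genes passed between PYS2 and XEN cells without normalization between arrays, in place of 30. At a detection p under 0.05, 7 members were present in END2 cells in place of 6 (Cxcr4 added), 2 in PYS2 cells in place of 1 (Cxcl12 added) and 4 in XEN cells in place of 3 (Cxcl12 added). Replicates with the same number did not deviate together (correlations of -0.276 to 0.31), so the numbers were not taken as pairs. With replicate number as a block, 52 genes of the pathway and marker lists passed in END2 against PYS2, as without it, and the probes called were 8529 in place of 8631. The number of arrays limits the precision. Levels of undetected probes do not measure a transcript, so the bounds use the level of the dimmest detected probe where that is higher.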
